A study of Mus musculus with 2 samples.

Results

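In OT-I CD8 T cells given IL-2, the deposited gene table held 5703 STAT5 regions. Of these, 1340 (23.5%) had their centre within 1000 bp of a listed gene start and of no listed start running the opposite way. They were chosen by position alone, from the distances in that table, and 1319 of them lay near 1 start and 21 near several starts of one strand. Another 229 regions lay at starts of gene pairs on opposite strands, and 4134 lay over 1000 bp from every listed start. Binding was measured by chromatin immunoprecipitation with an anti-STAT5 antibody followed by sequencing, with 1 library per group. The cells came from C57BL/6 background and carry a transgenic receptor for the ovalbumin peptide SIINFEKL. After transfer into host mice they were primed with this peptide and agonists of CD134 and CD137, which are costimulatory receptors, and 4 days later they were sorted from spleens. The cells carried on in culture, where the control cells received no cytokine and the other cells 0.5 µg/ml IL-2 for 1 hour, so priming and costimulation were shared by both groups. The sources used here do not say whether cells of several mice were pooled.

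STAT5 is activated when the IL-2 receptor and its Janus kinases phosphorylate it, and it then enters the nucleus as a dimer. STAT dimers recognise a palindrome of the half-sites TTC and GAA with 3 bases between them. In T cells STAT5 is known for inducing the feedback inhibitor Cish, the IL-2 receptor chains and survival genes. A gene start, or promoter, is where RNA polymerase begins and where many other factors gather, so signal there is read beside sequences that do not carry the palindrome.

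Of the 1340 regions, 1001 (74.7%) were matched to a RefSeq promoter sequence of the GRCm38.p6 build, which spans 250 bases before to 50 after a start. The centre of the region fell inside that sequence for 250 of them. The palindrome TTCNNNGAA, which reads the same on both strands, was present in 121 of these 250 sequences (48.4%, 95% Wilson interval 42.3 to 54.6%). Among all 32851 promoter sequences 8.3% held it, and among 21262 protein-coding ones 7.69%. Of those 121 regions, 82 had a peak height that could be read. The 10 with the highest IL-2 peaks among these 82 are shown first, since they carry the strongest readable signal at such a sequence. Each is given 5′ to 3′ on the strand of its gene, with the palindrome in capitals and 10 bases on each side.
Gtf2a2 (chr9:70012480-70012508, + strand): accacgccccTTCTCGGAAacggcggtgg
Emp1, upper copy (chr6:135362801-135362829, + strand): tacaacagggTTCTTTGAAttgatggctc
Emp1, lower copy (chr6:135362899-135362927, + strand): tccagactgaTTCATAGAAactcctttaa
Kdsr (chr1:106759942-106759970, - strand): aatctgtgatTTCAAAGAAgaataccagg
Ifi35 (chr11:101448409-101448437, + strand): agaagcagaaTTCACAGAAatgaaagtgg
Zfp456 (chr13:67375776-67375804, - strand): actgggagccTTCTAGGAAatacccttct
Trim30c (chr7:104400822-104400850, - strand): cgtgactaaaTTCTTAGAAgcttagtgac
Zfp58 (chr13:67500563-67500591, - strand): cctagctgatTTCCGGGAAattcttcgca
Rraga (chr4:86575558-86575586, + strand): aagaagcagtTTCTTAGAAttccaagggt
Icam1 (chr9:21015888-21015916, + strand): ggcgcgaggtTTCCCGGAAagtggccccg
Ctla2a (chr13:60936764-60936792, - strand): agtcttggcaTTCTCAGAAaagtcgcatc

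The peak heights at these starts were low in control and far higher with IL-2. Heights are in the authors' signal units, each value is 1 library, and pairs of heights are given with control first. Those of Kdsr and Ifi35 come from another gene for which the same region is listed. The region at Gtf2a2, a subunit of the general transcription factor TFIIA, had heights of 5 and 100. At Emp1, a membrane protein gene with 2 copies of the palindrome, heights were 7 and 96, and at Kdsr, an enzyme of sphingolipid synthesis, 3 and 90. Ifi35, an interferon-induced gene, had 5 and 87, with the palindrome 11 bases after the start. Trim30c had 6 and 72. Rraga, a GTPase that signals amino acid supply to mTOR, had 5 and 62, with its palindrome 101 bases before the start. Icam1, the adhesion ligand of leukocyte integrins, had 7 and 56, with the region centre at -36 bp and the middle of the palindrome at -38 bp from the RefSeq start. Ctla2a, an inhibitor of cysteine proteases, had 4 and 54. In all 10 regions the IL-2 height lay above every control height among them, but they were chosen for high IL-2 peaks. Over all 2245 regions with a height, 0 had a control height at or above the IL-2 height.

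The sequence before the Kdsr start is shown at full length as the surroundings of one strong peak. It is 61.6% G or C, near the median of 60.3% over the 1001 member promoters, and covers chr1:106759743-106759992 on the - strand, the 250 bases up to the start, again with the palindrome in capitals.
Kdsr upstream: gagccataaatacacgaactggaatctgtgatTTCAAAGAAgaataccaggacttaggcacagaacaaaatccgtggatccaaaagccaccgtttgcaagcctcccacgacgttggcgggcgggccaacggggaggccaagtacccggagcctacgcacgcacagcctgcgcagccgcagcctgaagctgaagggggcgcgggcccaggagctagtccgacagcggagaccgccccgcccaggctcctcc
The region centre lay at -226 bp from the start and the middle of the palindrome at -214 bp.

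The share of promoter sequences with the palindrome varied with the position of the region. Only the 250 bases before to 50 after the start were searched, wherever the region lay. The promoter sequence held it for 36 of 71 members with a centre from -250 to -151 bp from the RefSeq start (50.7%), for 50 of 98 from -150 to -51 bp (51%) and for 35 of 81 from -50 to 50 bp (43.2%). Where the centre lay outside the sequence, the share was 80 of 751 (10.7%, Wilson interval 8.64 to 13.1%). The sequence at the centres of these 751 was not searched, so their share does not show whether the palindrome lies under the region. At centres 500 to 1000 bp downstream it was 10 of 158 (6.33%, Wilson interval 3.47 to 11.3%), close to the 8.3% of all promoters. Listed genes with no region within 1000 bp of their start had it in 181 of 2906 promoter sequences (6.23%). Regions at opposite-strand pairs with the centre inside had it in 26 of 56 (46.4%, Wilson interval 34 to 59.3%), which overlaps the interval of the single starts, and the difference was not tested.

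**Figure D1:**
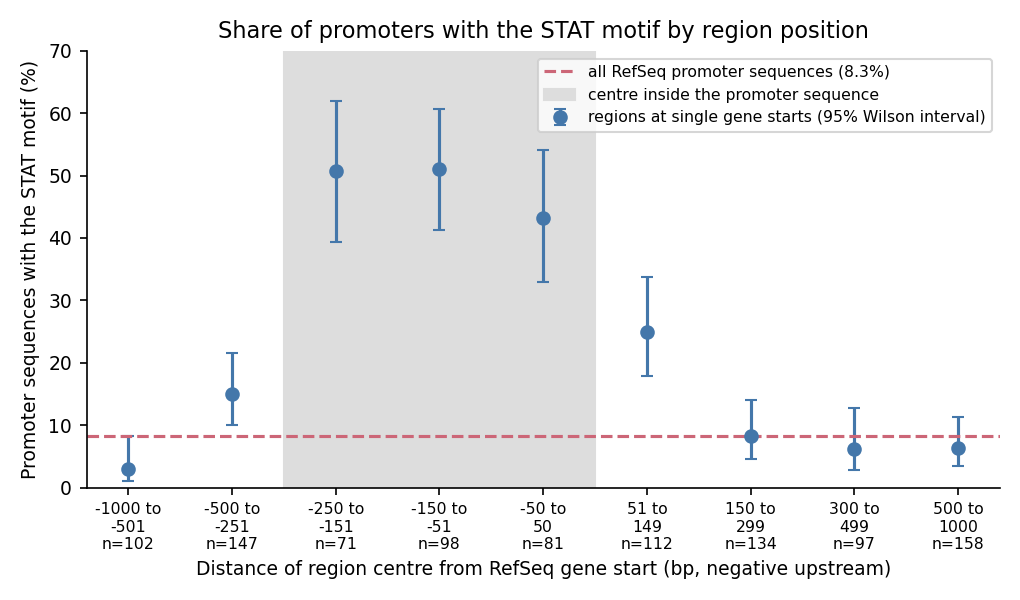
Share of promoter sequences with TTCNNNGAA (y axis, percent) by distance of the region centre from the RefSeq start (x axis, bp), with 95% Wilson intervals and the number of regions under each bin. The 3 shaded bins, where the centre lies inside the sequence, stand at 43.2 to 51%, against the dashed line at 8.3% for all promoters. In the other bins the sequence at the centre was not searched.

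With other spacings of the half-sites the counts were lower. With 4 bases between them the sequence was present in 25 of the 250 (10%, against 6.95% of all promoters), and with 2 bases (TTCNNGAA) in 18 (7.2%, against 8.52%). The version with 4 bases between the half-sites of which the first is C was present in 19 (7.6%, against 3.91%).

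Sequences of other factors were searched on both strands of the same promoters. The ETS sequence CCGGAAG was in 48 of the 250 (19.2%, against 8.86%), the SP sequence GGGCGG in 125 (50%, against 35.7%), the RUNX sequence TGTGGT in 46 (18.4%, against 16.8%) and the AP-1 sequence TGANTCA in 17 (6.8%, against 7.81%). Among protein-coding promoters, which are richer in G and C, ETS stood at 11.6% and SP at 46.2%. CCAAT, the sequence of the factor NFY, was less frequent than in all promoters, with 63 of 250 (25.2%, against 37.4%). CRE (TGACGTCA) was in 9 (3.6%, against 1.79%), the NRF1 site in 24 (9.6%, against 4.6%), and YY1 (AANATGGC) in 15 (6%, against 6.05%). The TATA box sequence TATAAA was in 23 (9.2%, against 13.6%). A match is only a run of letters, and its occupancy was not measured.

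Copies of the palindrome also lay near the centre of the region. Over the 121 members the nearest copy was a median of 36 bp from the centre (interquartile range 19 to 64), and 80 of them (66.1%) had it within 50 bp. The nearest SP sequence was a median of 68.5 bp away, with 50 of 125 within 50 bp (40%). For ETS the median was 85 bp and for CCAAT 86 bp. Centres of 95.5% of all regions fall on multiples of 16 bp, which limits how finely these distances can be read.

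**Figure D2:**
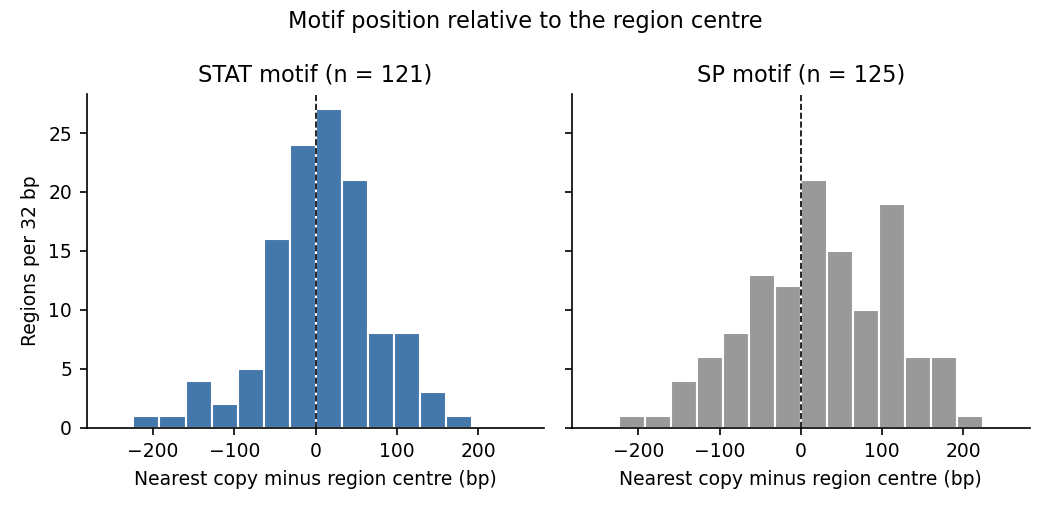
Distance in bp from the region centre to the nearest copy of the palindrome (left, 121 regions) and of the SP sequence (right, 125 regions), as numbers of regions per 32 bp. The left distribution is gathered around 0, with 66.1% of regions within 50 bp, against 40% on the right.

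The most frequent versions of the palindrome were counted in either orientation. TTCCCAGAA was in 26 of the 250 sequences (10.4%, against 1.28% of all promoters), TTCCAGGAA in 16 (6.4%, against 0.807%), TTCTCAGAA in 14 (5.6%, against 0.676%) and TTCCCGGAA in 13 (5.2%, against 0.35%). Of the 250 sequences 110 held 1 copy, 11 held 2 and 129 held none. Cish, which encodes the classical STAT5-induced inhibitor of cytokine signalling, was one of the 11. Its copies lie 11 bases apart just after the start, so both fall within each other's flanks.
Cish, first copy (chr9:107296649-107296677, + strand): ccgcccagttTTCCTGGAAagttcttgga
Cish, second copy (chr9:107296660-107296688, + strand): tcctggaaagTTCTTGGAAatctgtcaaa
No height is given for Cish, because its table entry is a mean over several regions.

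Regions with the palindrome had higher IL-2 peaks than those without it, with much overlap. Among members with a centre inside the promoter sequence and a height, 82 with it had a median IL-2 height of 21.5 (interquartile range 15.25 to 34, highest 100) and 88 without it a median of 15 (12 to 21, highest 105). The control medians were 5 and 4. From the lowest IL-2 heights to the highest, the share with the palindrome was 32.7% of 52 at heights of 10 to 14, 47.4% of 38 at 15 to 17, 51.4% of 37 at 18 to 27 and 65.1% of 43 at 28 to 105. Where the centre lay outside the sequence, 56 with the palindrome had a median of 20 and 420 without it a median of 15.5. These are regions of 1 library, not replicates, so no test is given. High peaks without the palindrome in this window included Il18rap, which encodes an IL-18 receptor chain (5 and 105), and Irf9, a DNA-binding factor of the interferon response (5 and 89).

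A second sequence overlapped the palindrome at some starts and was looked for after the sequences had been seen. The known site of the zinc finger factor Zfp143, searched on either strand, was present in 25 of the 250 sequences (10%, against 1.02% of all promoters). The 25 include Zfp457, Zfp458, Zfp58 and Zfp595 of the chromosome 13 cluster described below, and Zfp genes on chromosome 7 such as Zfp84 and Zfp790. Starts of related genes are not independent counts. In 9 of the 25 the Zfp143 site shared bases with TTCNNNGAA, as at Ttc1 and Pprc1, shown here because the flank holds the other site.
Ttc1 (chr11:43748053-43748081, - strand): gccactacatTTCCCAGAAtgctttgcca
Pprc1 (chr19:46056396-46056424, + strand): tagactacaaTTCCCAGAAatcctcgagg
The 23 of these 25 regions with a height had a median IL-2 height of 17 (11 to 63). The 65 regions with the palindrome and a height but without the Zfp143 site had a median of 23 (10 to 100). Some regions with the Zfp143 site, such as Acbd5, lack the palindrome, so these medians do not compare like sets. Ttc1 had heights of 4 and 14, and Pprc1, a coactivator of mitochondrial gene programmes, 5 and 17.

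A row of zinc finger genes on chromosome 13 had regions at starts with the palindrome. Zinc finger proteins of this family repress transcription, many of them through retroelement sequences, and the cluster was picked out after its values were seen. Of the 11 genes listed there, 8 had a region at a single start, and these 8 regions, spread over 328 kb, all had the palindrome in the promoter sequence. The other 3 (Zfp459, Zfp953 and F630042J09Rik) had no region within 1000 bp of their start. The promoter sequences of Zfp457, Zfp458, Zfp58 and Zfp595 also held the Zfp143 site. The flanks show which genes share a sequence.
Zfp429 (chr13:67399782-67399810, - strand): actgggagccTTCCAGGAAatccccttct
Rsl1 (chr13:67173139-67173167, + strand): actgggagccTTCCAGGAAatccccttct
Zfp455 (chr13:67194412-67194440, + strand): ccacattcagTTCCAGGAAtagcttcgca
Zfp458 (chr13:67269182-67269210, - strand): atttggagtgTTCCTGGAAgtcctttgca
Zfp595 (chr13:67332621-67332649, - strand): gttctgtgggTTCCTGGAAgttcttcgca
Zfp457 (chr13:67306501-67306529, - strand): cttcagtgggTTCCCGGAAgtccttccaa
Rsl1 and Zfp429 were identical over the 29 bases, and Zfp456, printed above, matched both at 27. Zfp456 had 4 and 86, Zfp58 had 4 and 63, and Zfp455 had 4 and 52. Zfp458 had 2 and 52, Zfp595 had 5 and 51, Zfp429 had 3 and 41, and Zfp457 had 5 and 17. Zfp457 was thus the low one of the 7 with a height. The control heights of 2 to 5 did not overlap the IL-2 heights. This is no trait of the cluster, since the lowest IL-2 height of any region with a height was 9. Rsl1 had another region and no height of its own. The sources used here do not say how reads that match several of these related genes were placed, so the split of signal among them is uncertain. Over the genome, 39 of 74 listed genes with a Zfp number as symbol had a region at a single start (52.7%), against 1350 of all 4934 listed genes (27.4%). Of the 39, 12 were on chromosome 7 and 7 on chromosome 13, so this count includes the cluster and is not independent of it.

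Starts of interferon-inducible GTPases on chromosome 11 shared a sequence in the same way. These proteins act against intracellular pathogens, and they are named here after their sequences were seen.
Irgm2 (chr11:58214892-58214920, + strand): aactagccatTTCCAGGAActgaaactga
Igtp (chr11:58199501-58199529, + strand): aactagccatTTCTAGGAActgaaactga
Tgtp1 (chr11:48992316-48992344, - strand): aactagccatTTCCAGGAAtcgaaactga
Tgtp2 (chr11:49064275-49064303, - strand): agctagccatTTCCAGGAAtcgaaaccga
Irgm2 and Igtp were identical at 28 of 29 bases, and Tgtp1 and Tgtp2 at 27. Only Tgtp2 had a height (0 and 30), and its near copy Tgtp1 makes this value uncertain.

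Heights could be read for 834 of the 1340 regions, those listed for some gene with no further region. For 766 of them that gene was the one at the start, and for 68 only another gene. The other 506 regions belong to genes with up to 23 regions, whose table entry is a mean, and are described by position and sequence only. The heights therefore describe mainly genes with a single region.

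Control heights of the 834 regions had a median of 4 (interquartile range 3 to 5, lowest 0, highest 13) and IL-2 heights a median of 16 (13 to 24.75, lowest 9, highest 124). The IL-2 height was above the control height in each of the 834 as deposited, but every region was listed because it was called in the IL-2 library. With 5 added to both heights, the IL-2 to control ratio was at least 2 in 638 (76.5%, Wilson interval 73.5 to 79.3%), and the median log2 ratio was 1.22. The background share over all 2245 regions with a height was 80.4%, so the members were not above it. When the control library was multiplied by 3.6, which gives both the same median over all genes with a single region, the IL-2 height was the higher one in 499 of the 834, and 132 passed the same ratio. That scaling moved the median log2 ratio by -1.12, and the authors' own scaling of the libraries is not stated in the sources used here. With 1 library per group no test of IL-2 against control was possible.

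Among regions with a height, peaks at single starts were lower than those far from starts. Heights could be read for 62.2% of single-start regions, 80.8% of pair regions and only 29.7% of those elsewhere. Whether this uneven coverage bears on the difference was not tested. The 1226 regions over 1000 bp from every start with a height had a median IL-2 height of 20 (interquartile range 15 to 33), against 16 at single starts and 16 at the 185 regions of opposite-strand pairs. An IL-2 height of 50 or more was reached by 69 of 834 single-start regions (8.27%, Wilson interval 6.59 to 10.3%), by 18 of 185 at pairs (9.73%, Wilson interval 6.24 to 14.9%) and by 153 of 1226 elsewhere (12.5%, Wilson interval 10.7 to 14.4%). The highest peak elsewhere was 238. Control medians were 4, 5 and 4. The Wilson intervals cover the counting of regions in 1 library only.

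**Figure D3:**
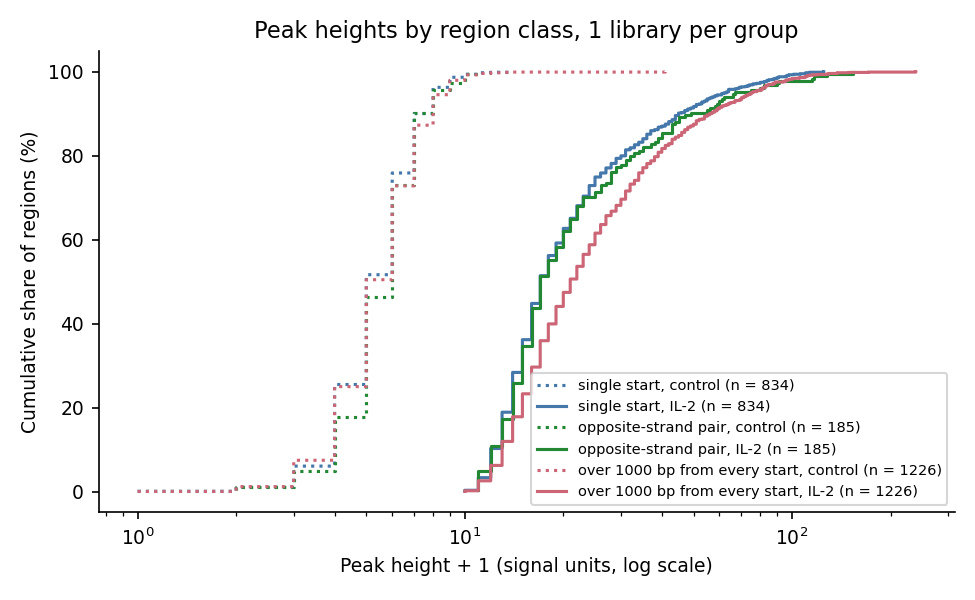
Cumulative share of regions with a height (y axis, percent) by peak height plus 1 (x axis, signal units, log scale). The 3 classes of region are drawn with control dotted and IL-2 solid. The IL-2 curve of regions over 1000 bp from every start, with a median of 20, lies to the right of both classes at starts, with a median of 16, while the control curves run close together.

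Region centres were gathered close to the start. The median distance was 43 bp downstream (interquartile range -260.25 to 324.25), and 580 of the 1340 (43.3%) lay within 250 bp. Upstream lay 620 (46.3%, Wilson interval 43.6 to 48.9%) and downstream 720. The fullest 100 bp were those from 100 to 200 bp inside the gene, with 137 regions, against 22 from 1000 to 900 bp before the start. The 389 upstream regions with a height had a median IL-2 height of 18 (interquartile range 13 to 29) and the 445 downstream ones a median of 15 (13 to 22). Both had a control median of 4. At the limit itself, the last members inside were at Max, the partner of Myc (1000 bp, heights 4 and 57), and at Gm10073 (-1000 bp, 4 and 14), and the first region outside at Mex3a (-1003 bp, 4 and 23).

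**Figure D4:**
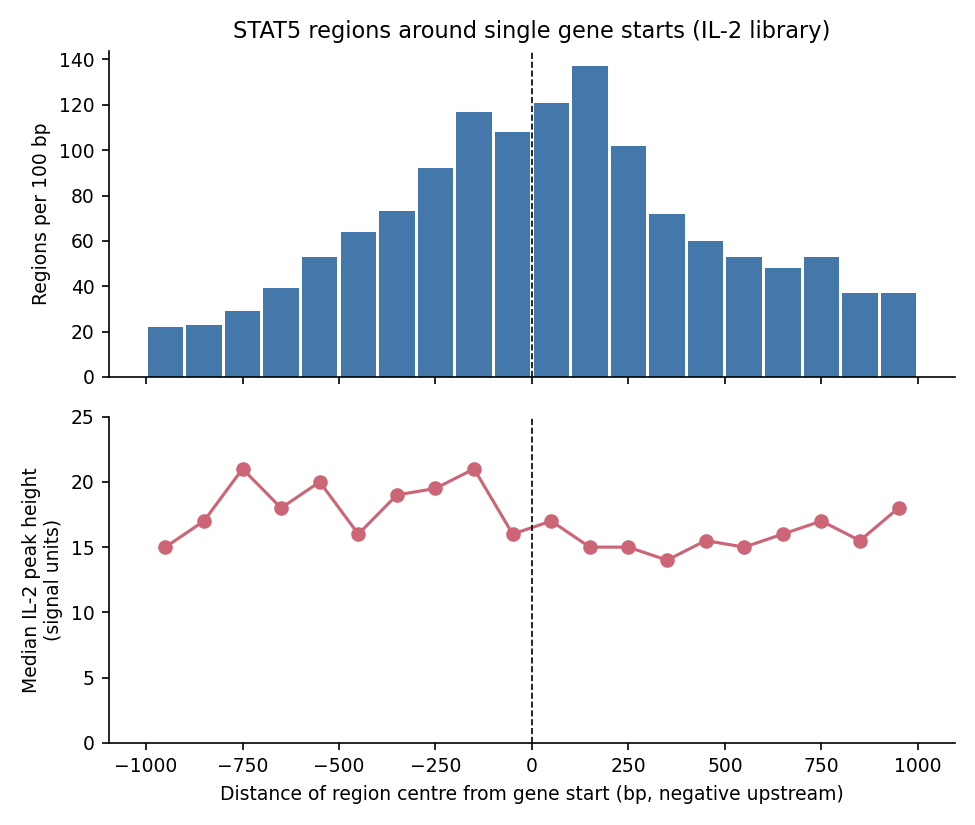
Number of regions per 100 bp (upper panel) and their median IL-2 height in signal units (lower panel) by distance from the gene start in bp, negative upstream. Regions are most frequent within 300 bp on either side, and the bin medians run from 14 to 21.

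Among the 834 regions with a height, the highest peak was at Vprbp on chromosome 9 at 106822736 (3 and 124). Vprbp is the substrate receptor of a cullin ubiquitin ligase. The 506 regions without a height could not be ranked. Tes, a LIM-domain protein of focal adhesions, had 6 and 112, 915 bp inside the gene. Gclm, which regulates the first step of glutathione synthesis, had 3 and 109, and Pan2, a nuclease that shortens poly(A) tails, 5 and 109. The 20 highest had IL-2 heights of 82 to 124 and control heights of 3 to 9. They included Il18rap and the interferon response genes Irf9 and Ifi35, given above, beside genes of other functions. Ppm1k, a mitochondrial phosphatase of amino acid breakdown, had 4 and 95, 2 bp from the listed start, and Lsm4, of RNA splicing and decay, had 9 and 95. Cmtm6, which stabilises the ligand of PD-1 at the cell surface, had 4 and 84, Spg7, a mitochondrial protease, 4 and 83, and Tial1, an RNA-binding protein, 5 and 82. Of these 20, 18 had a promoter sequence, and 8 of the 18 held the palindrome, 5 of them among the 7 with the centre inside.

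The lowest IL-2 heights were 9 and 10, and the 10 regions taken from this end, ties at 10 included by gene name, had 3 to 5 in control. Among them were Cops3, a subunit of the COP9 signalosome (4 and 9), Adss, an enzyme of purine synthesis (5 and 10), and Eif2s2, a subunit of translation initiation factor eIF2 (3 and 10). Of these 10, 8 had a promoter sequence, and 0 of the 8 held the palindrome. The region centre lay inside that sequence for 0 of them, so the sequence at the centres was not searched. Among all members with the centre outside, 10.7% held it. The highest control heights were at Trbv12-1, a variable segment of the T cell receptor beta chain (13 and 19), Farsb, a subunit of phenylalanyl-tRNA synthetase (11 and 25), and Cyp51, an enzyme of sterol synthesis (10 and 21). The cells carry a rearranged receptor transgene whose reads are not told apart here, so the Trbv12-1 heights are uncertain in both libraries. With the scaled control all 6 regions named in this paragraph fell below 0 on the log2 scale, from -0.075 at Eif2s2 to -1.11 at Trbv12-1. Of the 11 control-library intervals in the table, 4 lay within 1000 bp of a start.

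**Figure D5:**
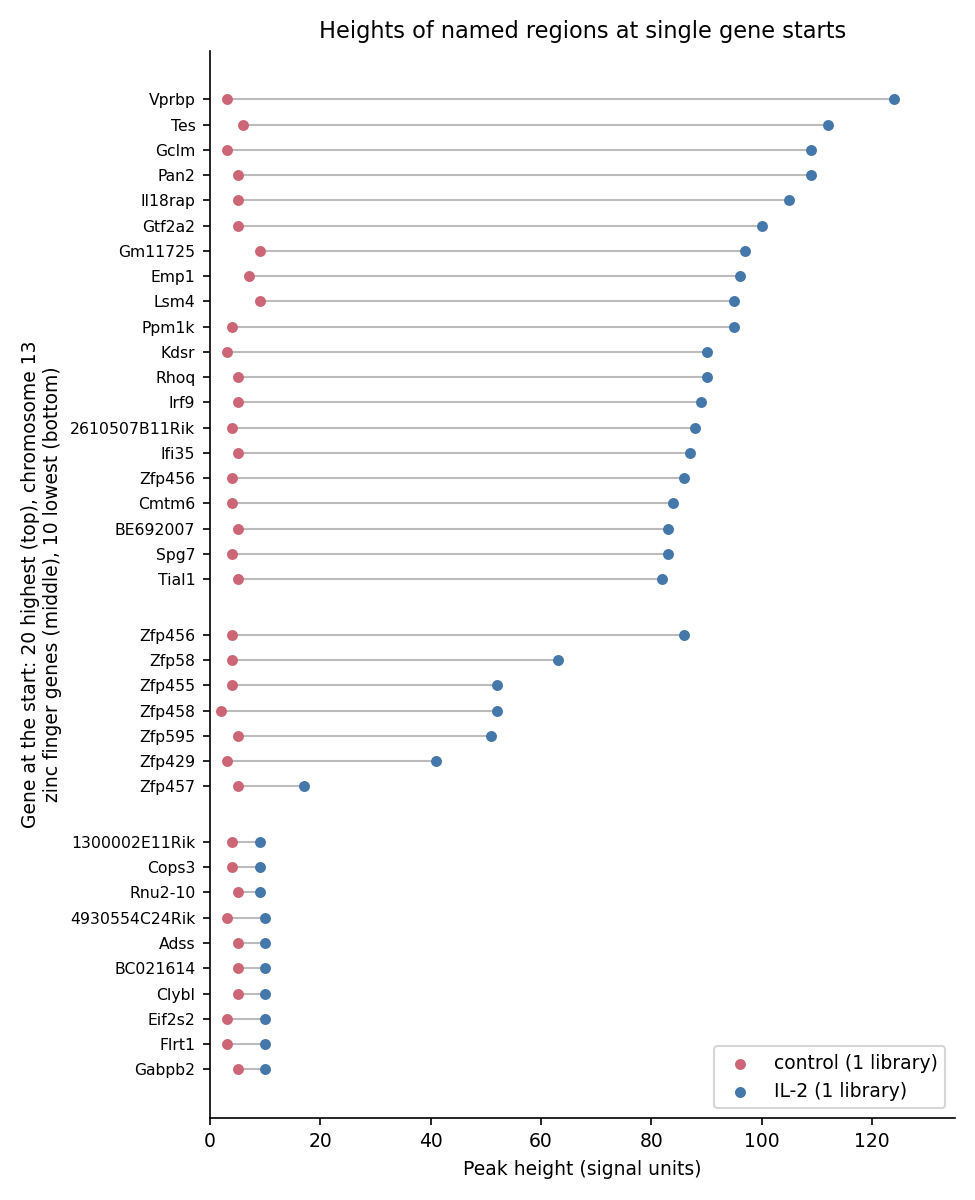
Control (red) and IL-2 (blue) peak height in signal units, for regions at single starts with a height. Shown are the 20 highest, the 7 chromosome 13 zinc finger genes with a height, and the 10 lowest. Control heights stay at or under 9, while IL-2 heights run from 82 to 124 at the top and from 9 to 10 at the bottom.

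Classical IL-2 and STAT5 target genes often had a region at their own start. Of 28 listed targets 19 did (67.9%), against 27.4% of all listed genes. Distances were 15 bp for Cish, -24 bp for the kinase Cdk6, -25 bp for the cytokine Lta, -60 bp for the repressor Bcl6, -97 bp for the protease Gzmb and -102 bp for the receptor chain Il2rb. The cytokine Osm and the phosphatase Dusp5 each had one at -113 bp. Heights were available for 3 of the 19 only. Pim2, a survival kinase, had 5 and 24. The perforin gene Prf1 had 4 and 16 and the growth regulator Myc 3 and 13, so none of these 3 was among the high peaks. The targets in the table have a median length of 5352 bp, against 20660 bp for all listed genes.

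Genes of cytokine reception and of the interferon response had regions at starts as well. Of all listed genes, 27.4% had them. Cytokine receptors had them for 10 of 16 listed genes (62.5%), among them Il18rap, Il7r (148 bp inside), Il21r (27 bp) and Il12rb2 (-55 bp), but only Il18rap had a height. JAK and STAT genes had them for 4 of 7, and Stat2 had 7 and 23. Interferon response and antigen presentation genes had them for 10 of 20 listed, with 5 more at opposite-strand pairs. Besides Irf9 and Ifi35, Gbp2, a guanylate-binding protein, had 4 and 44, Parp14, an ADP-ribosyltransferase, 10 and 35, and H2-D1, a class I antigen-presenting molecule, 5 and 12. With the control scaled to the same median, 2 of the 5 interferon response regions with a height fell below 0 on the log2 scale, Parp14 (-0.036) and H2-D1 (-0.44), and so did Stat2 (-0.11). Survival and apoptosis genes had them for 7 of 12, with the death receptor gene Fas at 4 and 28 and Diablo, which frees caspases, at 8 and 31. Fas and the interferon factor Irf1 had the palindrome in their promoter, shown here as inducible immune genes.
Fas (chr19:34290556-34290584, + strand): tcaaagcgatTTCTGGGAAgacctgaata
Irf1 (chr11:53769914-53769942, + strand): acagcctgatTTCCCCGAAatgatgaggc

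Transcription factors of T cells had a start region for 17 of 39 listed genes (43.6%), against 27.4% of all. T cell receptor signalling genes had one for 8 of 26 (30.8%) and chromatin regulators for 6 of 19 (31.6%), both near the share of all listed genes. Heights there were modest. Klf13 had 7 and 28, Nfkb2 4 and 17, Satb1 2 and 13, Relb 5 and 11, Myb 2 and 10, and the kinase Zap70 6 and 13. Relb and Zap70 fell below 0 with the scaled control (-0.52 and -0.56). The histone deacetylase gene Hdac1 was higher, with 3 and 33. Of the defining T cell markers 7 of 8 were in the table, Cd2 and Cd8a with a region at the start. B cell markers were there for 1 of 6, myeloid for 1 of 6, erythroid and megakaryocyte for 0 of 5, and Cd4 was absent. A region near a marker is binding, not expression.

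Genes of general cell maintenance were also listed for their start, mostly at low heights. Against 27.4% of all listed genes, mitochondrial respiration genes had a start region for 8 of 9 listed, translation factors for 7 of 9 and ribosomal proteins for 11 of 20. Their listed members had median lengths of 6270, 11140 and 3124 bp. These shares leave out genes that were not listed. Only 9 of 38 mitochondrial respiration genes, 9 of 34 translation factors and 20 of 76 ribosomal proteins were listed, against 28 of 30 IL-2 and STAT5 targets. Glycolysis genes had a start region for 0 of 7 listed (23010 bp), housekeeping genes for 1 of 6 and unrelated tissue genes for 0 of 3. The part of gene length in these counts was not tested. Uqcrc2, a subunit of respiratory complex III, had 7 and 56, and Ndufv1, of complex I, 4 and 36, but Ndufs7 had 6 and 17 and Cyc1 5 and 12. Among ribosomal proteins Rps3 had 6 and 49 and Rps15 4 and 29, while 5 others had IL-2 heights of 12 to 18. The 6 translation factors with a height ran from 10 to 19 with IL-2, and 1 of them (Eif4a2, 6 and 19) passed the ratio of 2, which 80.4% of all regions with a height did. With the scaled control, all 6 of these translation factors fell below 0 on the log2 scale (-0.92 to -0.075). So did 3 of 6 mitochondrial respiration regions with a height, Ndufs7 and Cyc1 (-0.27 and -0.44) among them, and 3 of 7 at ribosomal protein genes. RNA-binding proteins had start regions for 9 of 22, led by the helicase Ddx3x (4 and 60), proteasome genes for 4 of 13 (30.8%, near the 27.4% of all listed genes), led by Psmd3 (4 and 57), and cell cycle genes for 4 of 8, of which Ccnb2 had 6 and 14. Scaled, 4 of 8 RNA-binding, 3 of 4 proteasome and the 1 cell cycle region with a height were below 0.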

How the data were processed

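Cells were treated with or without IL-2 and 1 library was made per group. The submitters' processing notes name BWA and mm10. Peak caller, read extension, depth and scaling are not stated in the sources used here. The authors deposited 1 gene table, whose peak heights are a signal averaged over the regions of each gene. Read counts were not used here, so depth is unknown and no interval covers it. All per-sample columns belong to these libraries.

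Interval centres were computed from gene start and distance, and 5714 of 5714 intervals gave 1 centre whichever gene was used. Heights came only from genes with 1 active region. A pseudocount of 5 was added to both heights before the log2 ratio was taken. Promoters were matched by gene identifier on the same strand, within 1000 bp of the deposited start, taking the start nearest the region centre; 700 of 1001 starts were equal. Exon, intron and UTR were not assigned. Motif, height and member steps were tested on simulated data.

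The members, the 17 gene lists and the motifs were chosen with earlier results of these data known. Regions named were the 20 highest, 10 lowest, 10 highest in control and 10 of largest ratio, up to 6 of each list, 10 with the palindrome and 3 on each side of the limit; not all are printed. Genes named for position or sequence only, Tgtp2, Ttc1, Pprc1 and the chromosome 13 cluster fall outside that rule. Alternatives were other pseudocounts, ratios, distances, scaling, solved heights and motifs. Python 3.11.15, pandas 2.3.3 and scipy 1.17.1 were used.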

Additional observations from a re-analysis of the deposited data

How the results depend on the processing

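No paired analysis was possible because there is only 1 library of each kind. For the log2 ratio, whose median was 1.22, pseudocounts of 1 and 10 gave 1.77 and 0.90, scaling to equal medians gave 0.11, and it was 1.53 for regions of higher signal only (mean of both heights at or above its median), where the median IL-2 height was 24. That scaling put the control median at 14.4. In place of 638 regions past a ratio of 2 there were 139 past a ratio of 4, 350 with the pseudocount at 10, 132 after scaling and 405 of the 444 regions of higher signal. After scaling, 38 of the 90 named regions were below 0 on the log2 scale, 2 at 0 and 50 above. Of the 38, 28 had a ratio under 2 before scaling, and 10 had a ratio of at least 2: Parp14 (-0.036), Stat2 (-0.11), Rpl28 (-0.03), Eif4a2 (-0.15), Hnrnpa2b1 (-0.058), Cox5a (-0.27), Ndufs7 (-0.27), Psmd11 (-0.13), Psmd2 (-0.13) and Ncor1 (-0.064). Scaling removes an overall difference by construction, so it does not show which value is right. With a limit of 250 bp there were 675 regions at single starts, and with opposite-strand starts taken from RefSeq promoters 1225. The difference in median IL-2 height from regions elsewhere, -4, was -2 with a limit of 250 bp, -3 with 2000 bp and 0 against opposite-strand pairs. The share of the 1001 promoters with the palindrome was 20.1%, and 48.4% with the centre inside. It was 4.8% with 4 bases between half-sites of which the first is C and, in searches chosen after seeing the data, 7.29% with 4 bases between half-sites, 6.99% with 2, and 17.4% without promoters that hold the Zfp143 site. With distances of 500 and 2000 bp, solved heights or the pairs kept, the median IL-2 height was 16 or 17. The cause of these changes was not tested beyond what each setting does by construction.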

Other observations

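Segments of the T cell receptor loci were among the starts. There were 28 regions near the starts of 43 segments, and 8 of these regions had a height. With control first, Trbv21 had heights of 5 and 69 and Trav15-1-dv6-1 of 4 and 54, while Trgj1, of the gamma chain, had 2 and 20. Traj19 had 6 and 17, Trbv15 had 4 and 16, Trbv17 had 2 and 16, and Trbv23 had 4 and 13. With Trbv12-1, given above, IL-2 heights ran from 13 to 69. Segments lie close together, so 1 region can be at the start of up to 5 of them, and the cells carry a rearranged receptor transgene whose reads are not told apart in the table.

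By RefSeq type, 1202 of the 1340 regions were at protein-coding genes, 62 at long non-coding RNA genes and 9 at microRNA genes. Of the 1350 genes, 776 had no other region, and 23 had 2 regions within 1000 bp of their start, among them the transcription factors Ikzf1 and Klf6 and the kinases Pim1 and Jak2. A RefSeq promoter of the opposite strand, not in the deposited table as a pair, lay within 1000 bp of 115 of the 1340 regions.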
